A study of Mus musculus with 12 samples.

Results

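The Hox clusters are 4 arrays of homeobox genes that encode transcription factors of body position, Hoxa on chromosome 6, Hoxb on chromosome 11, Hoxc on chromosome 15 and Hoxd on chromosome 2 of the mouse. Their members were taken by name alone, as every row of the deposited expression table whose gene name, or any part of a joined gene name, is a Hox letter a to d with a paralog number. The rule found 35 rows that name 38 Hox genes, of 37750 rows in the table: 10 rows of Hoxa, 10 of Hoxb, 8 of Hoxc and 7 of Hoxd. Of these, 4 rows join several names (Hoxa2 with Hoxa3, Hoxb4 with the microRNA gene Mir10a, Hoxc10 with Hoxc5, and Hoxd10 with Hoxd11), and the values of their genes cannot be parted. Hoxd4 was not analysed here.

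The tumour libraries were 8 of liposarcoma (LPS), a malignant tumour of the fat lineage, from mice 9 to 12 months old, and they were set against 4 of white adipose tissue (WAT) from mice 3 weeks old. All 12 libraries came from Ad/NICD mice of strain 129 x C57BL/6, so tumours and fat alike carry the transgene for the intracellular domain of Notch1 (NICD), the fragment that carries the receptor's signal to the nucleus. The labels name neither the promoter that drives the transgene nor the fat depot or body site of any sample. Tissue, age and, possibly, position in the body change together between the groups and cannot be told apart. The libraries are called biological replicates, but no label ties a library to an animal, and the p-values measure the spread between these libraries.

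Hox genes are read along each cluster in an order that matches position along the body axis: low paralog numbers act in the head and neck, middle numbers in the trunk, and high numbers (the posterior genes, at the 5′ end of each cluster) in the lumbosacral region, the tail and the distal limb. Polycomb complexes keep the genes silent where they are not used, and Trithorax proteins keep them active where they are. Adult fibroblasts and fat progenitors retain part of this pattern, so fat of different depots differs in its Hox levels.

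The paralogs numbered 13 are the most posterior genes of the 4 clusters and differed from each other in tumours, so their DNA is shown first. Hoxa13 and Hoxc13 had signal in every tumour and were listed at 0 in every WAT library, whereas Hoxb13 and Hoxd13 stayed at or near 0 in both groups. Each homeobox below is the coding stretch of 180 bases for the DNA-binding homeodomain, cut from GENCODE M21 gene models on GRCm38 and written 5′ to 3′ on the coding strand. Capitals mark the 18 bases for the core of the recognition helix, the part of the protein that lies in the major groove of DNA. The Hoxa13 homeobox lies at chr6:52258928-52259107 on the minus strand, that of Hoxc13 at chr15:102927210-102927389 on the plus strand, that of Hoxb13 at chr11:96196020-96196199 on the plus strand and that of Hoxd13 at chr2:74669930-74670109 on the plus strand.
Hoxa13: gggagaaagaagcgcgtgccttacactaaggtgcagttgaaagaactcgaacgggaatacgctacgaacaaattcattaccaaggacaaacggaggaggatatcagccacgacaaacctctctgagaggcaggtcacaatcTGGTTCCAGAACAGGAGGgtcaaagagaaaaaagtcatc
Hoxc13: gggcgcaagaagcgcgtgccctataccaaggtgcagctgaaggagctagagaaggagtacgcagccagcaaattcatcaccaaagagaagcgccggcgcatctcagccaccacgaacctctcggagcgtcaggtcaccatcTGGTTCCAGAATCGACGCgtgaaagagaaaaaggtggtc
Hoxb13: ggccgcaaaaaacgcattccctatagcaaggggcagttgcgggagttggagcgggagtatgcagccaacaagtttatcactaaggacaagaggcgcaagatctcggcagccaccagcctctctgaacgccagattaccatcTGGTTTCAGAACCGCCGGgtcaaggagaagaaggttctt
Hoxd13: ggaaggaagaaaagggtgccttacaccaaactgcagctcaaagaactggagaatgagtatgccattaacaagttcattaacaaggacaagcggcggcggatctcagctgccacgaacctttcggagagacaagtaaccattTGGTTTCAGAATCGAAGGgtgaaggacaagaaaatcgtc
Hoxa13 and Hoxc13 share 139 of these 180 bases, Hoxa13 and Hoxd13 share 133, and Hoxb13 and Hoxd13 share 121. Their transcripts differ enough to be read separately: the longest identical stretch between any pair of the 4 was 16 bases, in Hoxa13 and Hoxc13. The longest stretch shared by Hoxc8 and Hoxb8 was 26 bases, and that of Hoxb2 and Hoxb3 was 28 bases.

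The promoters of Hoxa13, with signal in all 8 tumours, and of Hoxd13, above 0 in 3 of 8, are shown for the same contrast. Both are 300 bases from RefSeq on GRCm38.p6, which span a transcript start, with most of the window before it, with the CG pairs (the sites of DNA methylation) in capitals. The Hoxa13 promoter lies at chr6:52260831-52261130 on the minus strand and the Hoxd13 promoter at chr2:74667975-74668274 on the plus strand.
Hoxa13: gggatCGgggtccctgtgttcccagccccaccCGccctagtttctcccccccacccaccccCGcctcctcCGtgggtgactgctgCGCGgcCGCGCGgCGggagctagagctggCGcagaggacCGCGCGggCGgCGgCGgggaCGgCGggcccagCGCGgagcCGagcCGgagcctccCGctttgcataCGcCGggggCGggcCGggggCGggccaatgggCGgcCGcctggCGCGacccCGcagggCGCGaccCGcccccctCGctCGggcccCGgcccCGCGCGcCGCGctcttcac
Hoxd13: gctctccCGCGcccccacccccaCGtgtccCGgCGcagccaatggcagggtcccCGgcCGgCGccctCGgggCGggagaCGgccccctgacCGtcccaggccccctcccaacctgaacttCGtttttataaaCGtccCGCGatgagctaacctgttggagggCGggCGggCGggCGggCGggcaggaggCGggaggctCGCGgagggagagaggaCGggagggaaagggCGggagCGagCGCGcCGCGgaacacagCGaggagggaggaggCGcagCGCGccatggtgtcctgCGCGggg
The Hoxa13 window holds 45 CG pairs and 81.0% G or C, and the Hoxd13 window 37 CG pairs and 74.3% G or C. Of 32841 mouse promoters of that length, 98.1% hold fewer CG pairs than Hoxa13 and 94.4% fewer than Hoxd13. RefSeq promoters were at hand for 21 of the 38 Hox genes, as 23 windows with a median of 15 CG pairs, against 7 over all promoters. TGGGAA, the core letters bound by RBPJ, the factor through which the Notch intracellular domain acts, was searched on both strands (its letters hold no CG pair). It occurs once in the Hoxa13 window and not in that of Hoxd13, and it occurs in 21.7% of the Hox windows and 25.6% of all promoters. Such a match is a run of letters and not a measured site.

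Before the results, 1 library needs naming. LPS 5 held 362000 FPKM of the predicted gene Gm10800, against at most 3340 FPKM elsewhere, and 914 of 1760 olfactory and vomeronasal receptor rows were above 0 there, against 80 to 181 elsewhere. FPKM scales fragments to the length of the transcript and to the mapped fragments of the library, so levels can be compared between genes. Most rows of LPS 5 read low, with a median of 0.814 when each row was divided by its geometric mean across libraries, against 0.991 to 1.06 elsewhere. The table gives no fragment counts, so the depth per library is unknown; FPKM sums ran from 771665 to 996090 and the rows with at least 1 FPKM from 12965 to 14248. Adipoq, the adiponectin gene that marks fat cells, lay at 0.0433 to 4.26 FPKM in LPS and at 514 to 631 FPKM in WAT. Notch1 was present in every library, at 44.2 to 84.6 FPKM in LPS and 24.5 to 39.5 FPKM in WAT, and its row cannot part the transgene from the mouse's own gene.

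Most Hox rows that changed were higher in tumours, and the changes were uneven along and between the clusters. The summed FPKM of all 35 rows was 94.1 to 178 in LPS, with the lowest in LPS 5, and 65.3 to 97.4 in WAT, so the groups overlapped. Of the 35 rows, 24 passed the filter of at least 1 FPKM in at least 4 of 12 libraries, and of these 10 were higher and 2 lower in LPS (limma, Benjamini-Hochberg adjusted p below 0.05). Over all 14821 rows tested, 18.9% were higher, 27% lower and 46.0% changed either way. The median log2 difference, LPS minus WAT on the log2(FPKM + 1) scale, was 0.33 over the 24 Hox rows and -0.05 over all rows. In bulk tissue, fewer cells of a type and less RNA per cell cannot be told apart.

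In 9 of the 24 rows the tumours did not overlap with fat, 8 with every LPS library above every WAT library and 1 with every LPS library below. Over all rows tested, 32.6% did not overlap, 11.8% with LPS above and 20.9% with LPS below. Hoxa13, Hoxb8, Hoxc11 and Hoxc13 passed the filter through LPS libraries alone, which favours a difference, so neither their calls nor their lack of overlap add support. Among the other 31 rows, 20 were tested, 6 were higher and 2 lower, and the median log2 difference was 0.18. The groups did not overlap in 5 of these 20, 4 of them with LPS above. Over the 13760 tested rows that reached 1 FPKM in at least 1 library of each group, 17.4% were higher and 25.6% lower, with a median of -0.06. Of those 13760 rows, 4059 did not overlap, 1458 of them with LPS above. With no filter on low values, 10 of the 35 rows were higher and 3 lower, the third being Hoxb9, against 9.52% and 19.4% of 27793 rows.

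**Figure D1:**
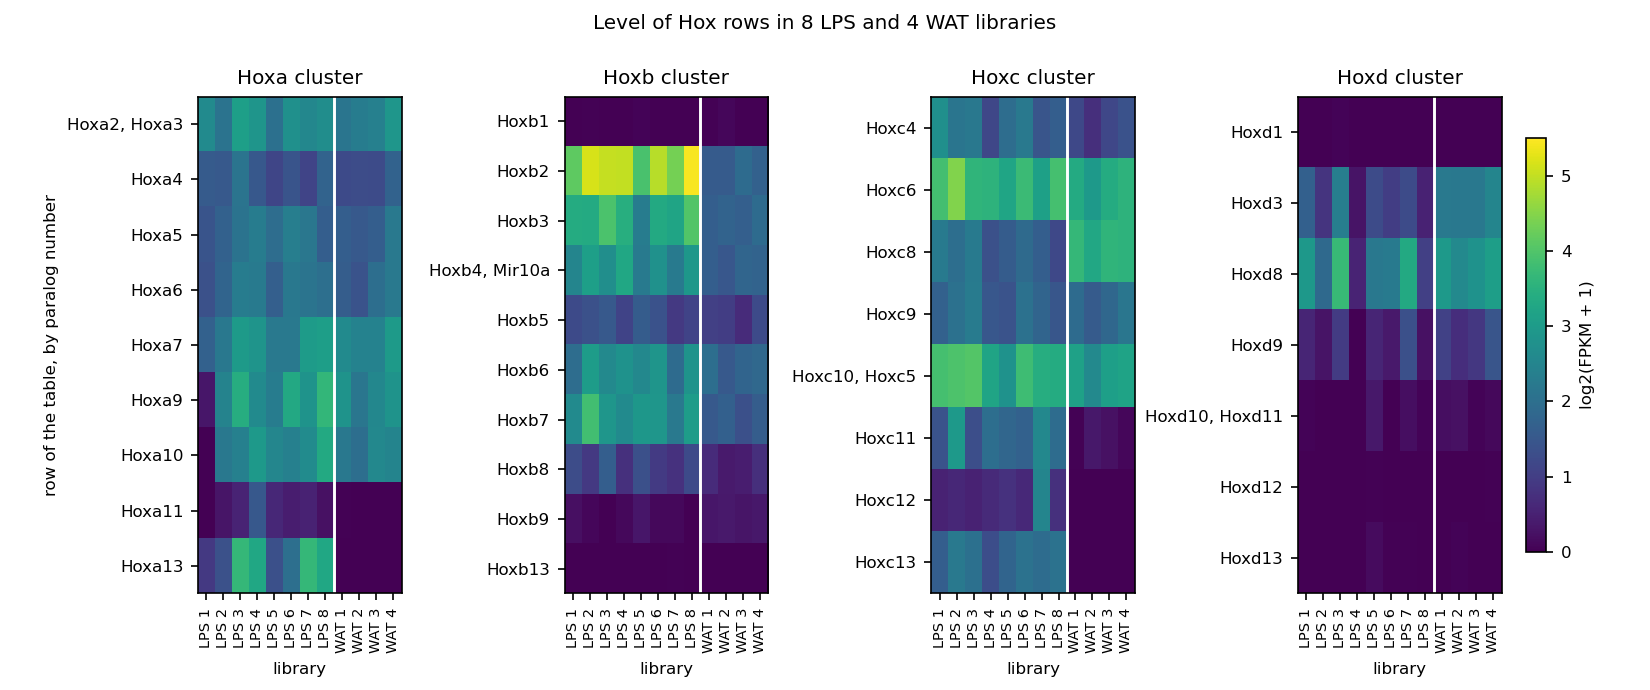
Level of the Hox rows on the log2(FPKM + 1) colour scale, with rows in order of paralog number within each cluster and the 8 LPS libraries left of the 4 WAT libraries, parted by a white line. Hoxb2 is the brightest row in LPS, Hoxa13, Hoxc12 and Hoxc13 are at 0 in WAT alone, and Hoxc8 is brighter in WAT.

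The posterior end of Hoxa had signal in tumours, and none of the other 7 tested Hoxa rows was called. Hoxa13 (chr6:52257694-52260880), a gene of the distal limb, the hindgut and the urogenital tract, measured 0.882, 1.58, 11.6, 8.65, 1.52, 3.05, 11.7 and 8.76 FPKM in LPS 1 to LPS 8 and was listed at 0 in all 4 WAT libraries. Every tumour was above every fat sample, and the tumours fell into lower values in LPS 1, LPS 2, LPS 5 and LPS 6 and higher ones in LPS 3, LPS 4, LPS 7 and LPS 8. Its log2 difference was 2.44 ± 0.53 (SE), with a limma adjusted p of 0.00217, a call that adds no support because Hoxa13 passed the filter through LPS libraries alone. The scale understates such low genes: with a pseudocount of 0.1 in place of 1 the difference was 5.38. Hoxa11, known in mice for the forearm and the uterus, did not pass the filter. It measured 0, 0.239, 0.464, 1.84, 0.523, 0.35, 0.45 and 0.184 FPKM in LPS 1 to LPS 8, and in WAT it was listed at 0 in 3 libraries and at 0.0298 FPKM in WAT 1.

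Hoxa9 and Hoxa10, the genes next to these, were not called and had 1 tumour that differed from the rest. Hoxa9, a gene also known from leukaemia, lay at 0.266 FPKM in LPS 1 and at 3.93 to 11.5 FPKM in the other 7 tumours, against 3.47 to 6.14 FPKM in WAT. Hoxa10 was listed at 0 in LPS 1 and lay at 3.59 to 9.16 FPKM in the other tumours, against 2.94 to 4.94 FPKM in WAT. LPS 1 thus held Hoxa13 at 0.882 FPKM with no listed signal of Hoxa10 or Hoxa11. The log2 differences were 0.03 ± 0.49 for Hoxa9 (limma adjusted p = 0.966) and 0.00 ± 0.47 for Hoxa10 (limma adjusted p = 0.994). Without LPS 1 they were 0.36 and 0.33, still not called.

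The Hoxa rows from Hoxa2 to Hoxa7 overlapped between the groups. The joined row of Hoxa2 and Hoxa3, genes of the hindbrain and pharyngeal arches, averaged 5.18 ± 1.48 FPKM in LPS (SD, n = 8) and 4.49 ± 1.34 FPKM in WAT (SD, n = 4). Hoxa4 averaged 1.94 ± 0.682 FPKM in LPS and 1.63 ± 0.472 FPKM in WAT, and Hoxa5, known for the cervical and thoracic spine and the lung, 2.98 ± 0.883 FPKM in LPS and 2.45 ± 0.813 FPKM in WAT. Hoxa6 averaged 2.99 ± 0.851 FPKM in LPS and 2.59 ± 0.898 FPKM in WAT, and Hoxa7 5.11 ± 2.03 FPKM in LPS and 5.28 ± 1.19 FPKM in WAT. None of these 5 rows was called, with log2 differences between -0.10 and 0.20 and limma adjusted p from 0.441 (Hoxa5) to 0.785 (Hoxa7).

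In the Hoxb cluster 6 of 7 tested rows were higher in tumours, against 18.9% of all rows tested. One of the 6, Hoxb8, passed the filter through LPS libraries alone and adds no support. Hoxb2 (chr11:96350525-96354012), a gene of the hindbrain segments, measured 16.5, 35.0, 31.3, 31.1, 14.2, 28.9, 19.4 and 42.6 FPKM in LPS 1 to LPS 8 and 1.98, 1.98, 2.79 and 2.28 FPKM in WAT 1 to WAT 4. The lowest tumour, LPS 5, was above the highest fat sample. Its means of 27.4 ± 9.84 FPKM in LPS (SD, n = 8) and 2.26 ± 0.383 FPKM in WAT (SD, n = 4) stood at a ratio of 12.1, and the log2 difference was 3.05 ± 0.26 (limma adjusted p = 8.1e-07), the largest of the 24 tested Hox rows on this scale. With a pseudocount of 0.1 it was 3.47, below those of Hoxa13 (5.38), Hoxc13 (4.79) and Hoxc11 (3.77). Hoxb2 was also the most abundant Hox row by mean in LPS, whereas Hoxc8 was so in WAT.

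The differences of the next genes were smaller. Hoxb3, its neighbour with a role in the same hindbrain segments, lay at 3.95, 9.35 and 15.0 FPKM (lowest, median and highest) in LPS and at 2.11 to 2.79 FPKM in WAT, without overlap, with a log2 difference of 1.63 ± 0.25 (limma adjusted p = 0.00016). The joined row of Hoxb4, a regulator of blood stem cells, and Mir10a measured 3.71 to 8.75 FPKM in LPS and 1.83 to 2.47 FPKM in WAT, without overlap, with a difference of 1.05 ± 0.20 (limma adjusted p = 0.000793). Hoxb5 overlapped and was not called, at 1.46 ± 0.397 FPKM in LPS and 0.999 ± 0.31 FPKM in WAT (0.30 ± 0.16, limma adjusted p = 0.143), and it was called after quantile normalization (adjusted p = 0.0108). Of the trunk genes, Hoxb6 measured 2.82 to 7.26 FPKM in LPS and 1.89 to 2.95 FPKM in WAT, where LPS 1 and LPS 7 lay below WAT 1. Its log2 difference was 0.79 ± 0.22 (limma adjusted p = 0.00975).

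Hoxb7 and Hoxb8 ended the expressed stretch of the cluster. Hoxb7, a trunk gene often raised in human carcinomas, measured 5.20, 13.2, 6.37, 5.24, 6.52, 6.37, 3.67 and 7.23 FPKM in LPS 1 to LPS 8 and 1.92, 2.22, 1.55 and 2.08 FPKM in WAT 1 to WAT 4. Every tumour was above every fat sample and LPS 2 stood above the other tumours (log2 difference 1.33 ± 0.23, limma adjusted p = 0.0004). Hoxb8, another trunk gene, measured 0.709 to 2.11 FPKM in LPS and 0.310 to 0.675 FPKM in WAT, without overlap. Its difference of 0.55 ± 0.17 had a limma adjusted p of 0.0205, and the call was lost without WAT 2 (adjusted p = 0.0641) or WAT 3 (adjusted p = 0.0636), or with LPS 1 to LPS 4 alone against WAT (adjusted p = 0.0516). Hoxb9 was low in both groups, at 0 to 0.269 FPKM in LPS and 0.235 to 0.289 FPKM in WAT. It was below the filter, and with no filter it was lower in LPS (log2 difference -0.21, limma adjusted p = 0.0227). Hoxb1 reached at most 0.0315 FPKM in LPS and 0.063 FPKM in WAT, and Hoxb13, a gene of the prostate and tail, was listed at 0 in all libraries but LPS 7, which held 0.0233 FPKM.

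**Figure D2:**
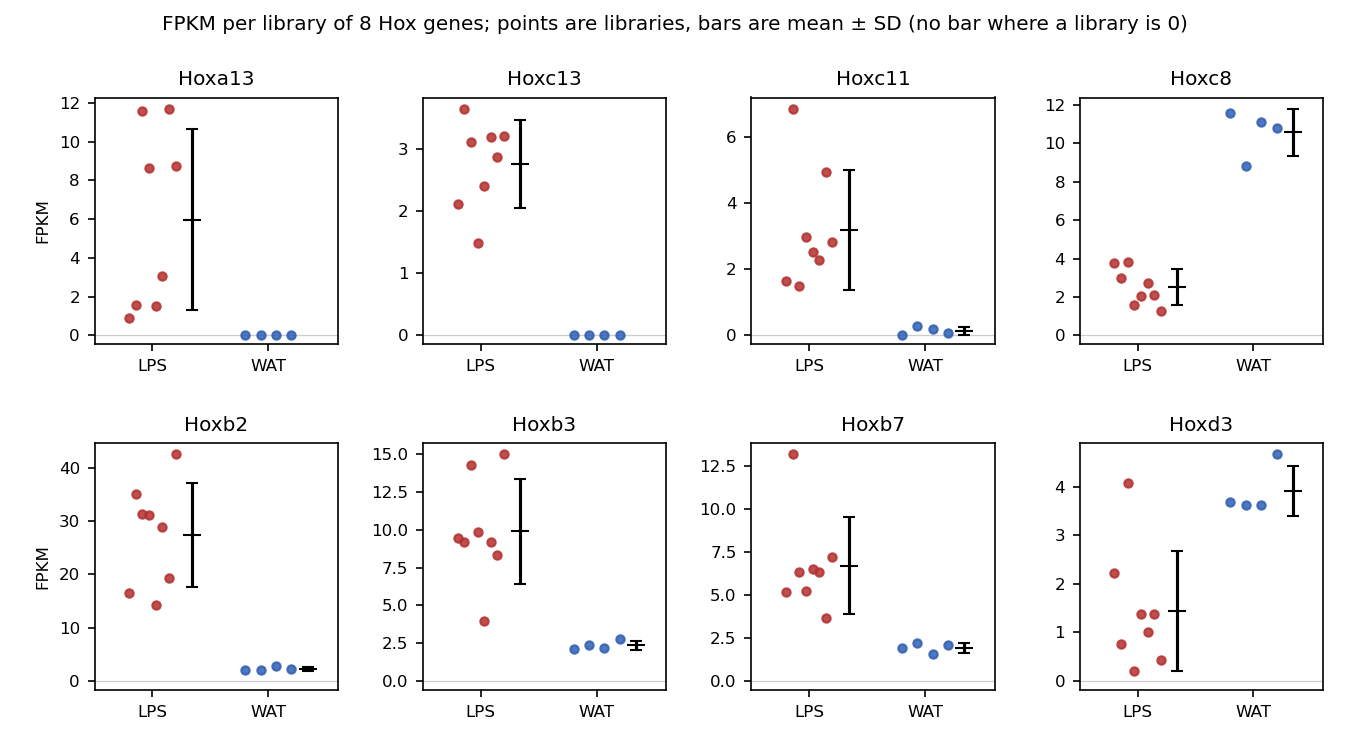
FPKM of 8 Hox genes in each library, LPS left of WAT in each panel, with the mean and SD beside the points of each group that has no library at 0. Hoxa13, Hoxc13, Hoxc11, Hoxb2, Hoxb3 and Hoxb7 are higher in every tumour than in every fat sample, Hoxc8 is lower in every tumour, and in Hoxd3 LPS 3 lies among the WAT libraries.

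The Hoxc cluster showed differences of both signs within a short distance. At its 5′ end, Hoxc13 (chr15:102921103-102928814), known for hair and nail, measured 2.12, 3.65, 3.11, 1.48, 2.40, 3.20, 2.87 and 3.22 FPKM in LPS 1 to LPS 8 and was listed at 0 in all 4 WAT libraries. The tumours lay within a range of 2.47-fold, the difference was 1.88 ± 0.16 (limma adjusted p = 9.35e-07), and with a pseudocount of 0.1 it was 4.79. Hoxc12 was below the filter, at 0.445 to 0.733 FPKM in 7 tumours and 4.68 FPKM in LPS 7, and was listed at 0 in all 4 WAT libraries. Hoxc11, a gene of the hindlimb and lower spine, measured 1.65, 6.84, 1.5, 2.98, 2.52, 2.27, 4.92 and 2.83 FPKM in LPS 1 to LPS 8 and 0.0211, 0.282, 0.179 and 0.0653 FPKM in WAT 1 to WAT 4. No tumour overlapped with fat, and LPS 2 and LPS 7 were the highest. Its log2 difference was 1.79 ± 0.27 (limma adjusted p = 0.000149), and 3.77 with a pseudocount of 0.1. Hoxc11 and Hoxc13 passed the filter through LPS libraries alone, so their calls add no support.

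Hoxc8, in the middle of the cluster, went the other way. Hoxc8 (chr15:102990607-102994111), a gene of the thoracic spine that is known in mice to hold back brown fat genes, measured 3.75, 2.98, 3.80, 1.59, 2.04, 2.75, 2.12 and 1.27 FPKM in LPS 1 to LPS 8 and 11.6, 8.81, 11.1 and 10.8 FPKM in WAT 1 to WAT 4. Every tumour was below every fat sample, and it was the only one of the 24 tested Hox rows with that pattern. The means were 2.54 ± 0.943 FPKM in LPS (SD, n = 8) and 10.6 ± 1.23 FPKM in WAT (SD, n = 4), and the log2 difference was -1.75 ± 0.21 (limma adjusted p = 1.44e-05).

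The rows on either side of Hoxc8 were not called. Hoxc9 averaged 2.51 ± 0.803 FPKM in LPS and 2.70 ± 0.593 FPKM in WAT (-0.09 ± 0.19, limma adjusted p = 0.712), and Hoxc6, a gene of the thorax, 12.3 ± 4.12 FPKM in LPS and 9.07 ± 1.69 FPKM in WAT (0.37 ± 0.22, limma adjusted p = 0.184). The joined row of Hoxc10, a gene of the hindlimb and of subcutaneous fat, and Hoxc5 measured 13.7, 14.5, 15.3, 8.21, 5.98, 12.9, 9.69 and 9.50 FPKM in LPS 1 to LPS 8 and 7.90, 5.03, 7.56 and 8.16 FPKM in WAT 1 to WAT 4. Only LPS 5 lay within the WAT range. Its difference of 0.55 ± 0.22 was not called (limma adjusted p = 0.0626), but it was called without LPS 5 (adjusted p = 0.0118), after median-ratio scaling (0.0227) and after quantile normalization (0.013). Hoxc4, a gene of the neck, measured 1.24 to 5.68 FPKM in LPS and 0.676 to 1.63 FPKM in WAT, where LPS 4 lay among the fat samples. It was higher in LPS (0.82 ± 0.26, limma adjusted p = 0.021), a call lost without WAT 2 (adjusted p = 0.076).

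Ratios of neighbouring rows compare the genes of a cluster within each library, and they are given here with no test. The rows of Hoxc6, Hoxc8, Hoxc9 and Hoxc10 with Hoxc5 carry the same locus, chr15:102966796-103017429, and those of Hoxb2 and Hoxb3 share another. The Hoxc5 gene model, on the same strand, spans Hoxc9, Hoxc8 and Hoxc6. How reads were split within a shared locus is not stated in the sources used here, so ratios of such rows can depend on that split. On the log2(FPKM + 1) scale, Hoxc8 over Hoxc6 was -1.91 ± 0.49 in LPS (SD, n = 8) and 0.21 ± 0.15 in WAT (SD, n = 4), and Hoxc9 over Hoxc8 was 0.00 ± 0.26 in LPS and -1.65 ± 0.17 in WAT. Hoxb3 over Hoxb2 was -1.37 ± 0.35 in LPS and 0.05 ± 0.21 in WAT, and Hoxa13 over Hoxa10 was 0.13 ± 0.90 in LPS and -2.30 ± 0.27 in WAT. Since Hoxa13 is at 0 in WAT, that WAT value holds only Hoxa10 and the pseudocount, and the difference of 2.43 between the groups was 3.32 and 5.70 at pseudocounts of 0.5 and 0.1. The groups did not overlap in 5 of the 20 neighbouring pairs, namely these 4 and the row of Hoxc10 and Hoxc5 over Hoxc9, at 1.78 ± 0.23 in LPS and 1.14 ± 0.14 in WAT. Both pairs with Hoxc8 hold the same Hoxc8 values. Single rows did not overlap in 32.6% of all rows tested, and no like share was computed for pairs of other genes. The ratios of neighbouring Hoxa rows from the joined row of Hoxa2 to Hoxa10 overlapped between the groups.

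**Figure D3:**
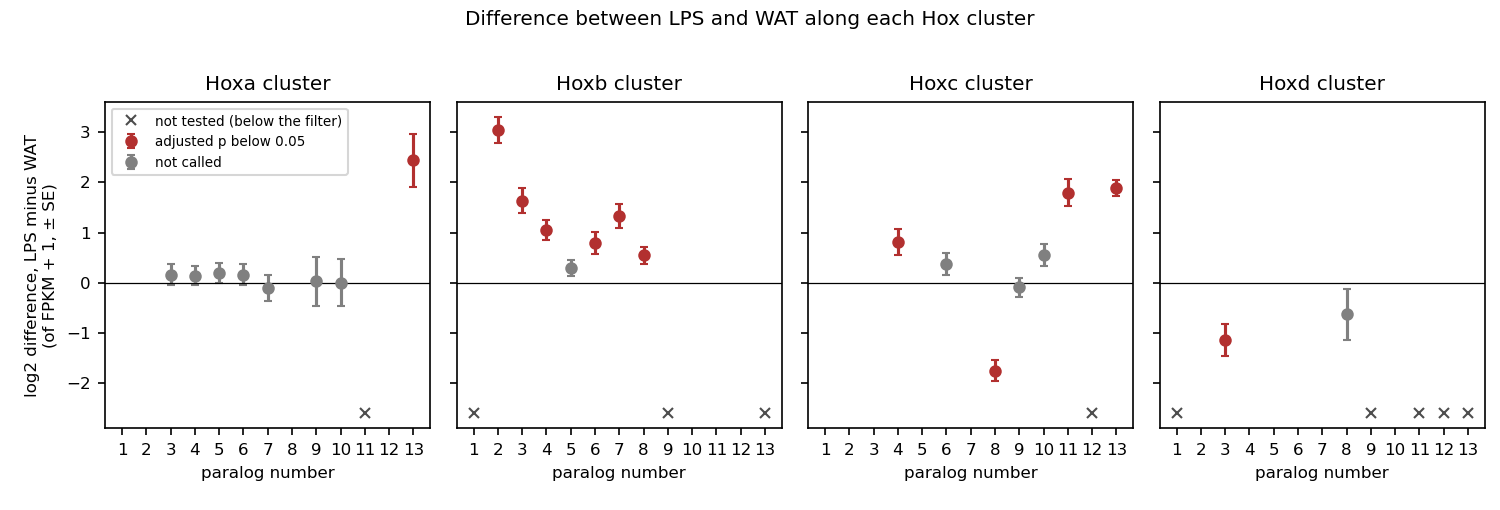
Log2 difference of FPKM + 1, LPS minus WAT, with its standard error, against paralog number in each cluster (called rows in red, rows not called in grey, rows below the filter as crosses at the bottom). Joined rows stand at 3 for Hoxa2 with Hoxa3, at 4 for Hoxb4 with Mir10a, at 10 for Hoxc10 with Hoxc5 and at 11 for Hoxd10 with Hoxd11; the Hoxb differences are 3.05 at Hoxb2 and 0.55 at Hoxb8, and Hoxc8 stands alone at -1.75.

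The Hoxd cluster varied widely among tumours. Hoxd3 (chr2:74711927-74748442), a gene of the neck vertebrae, measured 2.22, 0.764, 4.09, 0.214, 1.38, 1.01, 1.38 and 0.439 FPKM in LPS 1 to LPS 8 and 3.70, 3.62, 3.63 and 4.68 FPKM in WAT 1 to WAT 4. LPS 3 lay within the fat range and the other 7 tumours below it. The difference of -1.14 ± 0.32 was called (limma adjusted p = 0.01), but not with LPS 1 to LPS 4 alone against WAT (adjusted p = 0.0744). With a pseudocount of 0.1 the difference was -1.77. Hoxd8, a trunk gene, measured 6.68, 2.66, 12.0, 0.468, 3.63, 3.80, 9.19 and 1.07 FPKM in LPS 1 to LPS 8 and 6.89, 5.05, 6.01 and 7.50 FPKM in WAT 1 to WAT 4. The tumours spanned a range of 25.7-fold on both sides of the fat samples, and Hoxd8 was not called (-0.63 ± 0.51, limma adjusted p = 0.334).

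Hoxd9 lay at 0 to 1.53 FPKM in LPS and 0.659 to 1.75 FPKM in WAT, below the filter, with LPS 4 at 0 and LPS 7 the highest tumour. The joined row of Hoxd10 and Hoxd11 reached at most 0.27 FPKM in LPS and 0.192 FPKM in WAT. Hoxd12 reached 0.0254 FPKM in LPS and 0.0221 FPKM in WAT, Hoxd13, a gene of the digits, 0.121 FPKM in LPS and 0.0345 FPKM in WAT, and Hoxd1 0.0404 FPKM in LPS and 0 in WAT. The highest LPS values of Hoxd10 with Hoxd11, of Hoxd12 and of Hoxd13 were all in LPS 5, the library with the most receptor rows above 0.

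Taking 1 FPKM as the level of an expressed row, the 5′ limit of expression differed between the groups in Hoxa and Hoxc. In Hoxa it stood at Hoxa13 in LPS 2 to LPS 8 and at Hoxa7 in LPS 1, against Hoxa10 in all 4 WAT libraries. At a level of 0.5 FPKM it stood at Hoxa13 in all 8 tumours and at Hoxa10 in all 4 fat samples. In Hoxc it stood at Hoxc13 in all 8 tumours and at the joined row of Hoxc10 and Hoxc5 in all 4 fat samples, at both levels. That row was placed at Hoxc10, but its signal cannot be assigned to either gene. The limit in fat could therefore lie at Hoxc9. Hoxb ended at Hoxb7 or Hoxb8 in LPS and at Hoxb7 in WAT. In Hoxd the limit was Hoxd8 in 6 tumours and Hoxd9 in LPS 7, LPS 4 had no Hoxd row at 1 FPKM, and it was Hoxd8 or Hoxd9 in WAT.

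Summed over the 8 single-name rows of paralogs 11 to 13, LPS held 5.10 to 24.7 FPKM and WAT 0.0509 to 0.316 FPKM. Paralogs 1 to 3 summed to 23.1 to 64.4 FPKM in LPS and 11.6 to 16.6 FPKM in WAT, again without overlap, while paralogs 4 to 8 lay at 45.8 to 70.6 FPKM in LPS and 37.9 to 56.3 FPKM in WAT, and paralogs 9 and 10 at 3.19 to 22.6 FPKM in LPS and 9.37 to 16.1 FPKM in WAT. The rows of Hoxc10 with Hoxc5 and of Hoxd10 with Hoxd11 were left out of these sums. Hoxb2 carried the difference of paralogs 1 to 3: without it their sums were 8.96 to 26.9 FPKM in LPS and 9.67 to 14.4 FPKM in WAT and overlapped. Without Hoxa13, Hoxc11 and Hoxc13, paralogs 11 to 13 summed to 0.445 to 5.18 FPKM in LPS and 0 to 0.0345 FPKM in WAT. By cluster, Hoxb summed to 37.2 to 80.0 FPKM in LPS and 12.0 to 14.4 FPKM in WAT without overlap. Hoxa (15.3 to 52.0 FPKM in LPS, 20.3 to 34.1 FPKM in WAT), Hoxc (26.7 to 56.1 FPKM in LPS, 23.5 to 34.8 FPKM in WAT) and Hoxd (0.683 to 17.1 FPKM in LPS, 9.55 to 14.0 FPKM in WAT) overlapped.

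Tumours differed from each other in their Hox pattern. LPS 3 had the highest value of the 8 tumours in 9 of the 24 tested rows, LPS 2 and LPS 8 in 5 rows each, and LPS 1 and LPS 7 the lowest in 6 each. LPS 1 combined the highest Hoxc4 with the lowest Hoxa9, Hoxa10 and Hoxa13. LPS 4 had the lowest Hoxd3, Hoxd8 and Hoxc4 and the highest Hoxa11. The highest Hoxd8 values were those of LPS 3, LPS 7 and LPS 1, which also had the highest levels of Pparg, the regulator of fat cell fate, at 94.2, 66.5 and 82.2 FPKM against 2.93 to 16.4 FPKM in the other tumours. The part of fat cell identity in this was not tested.

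**Figure D4:**
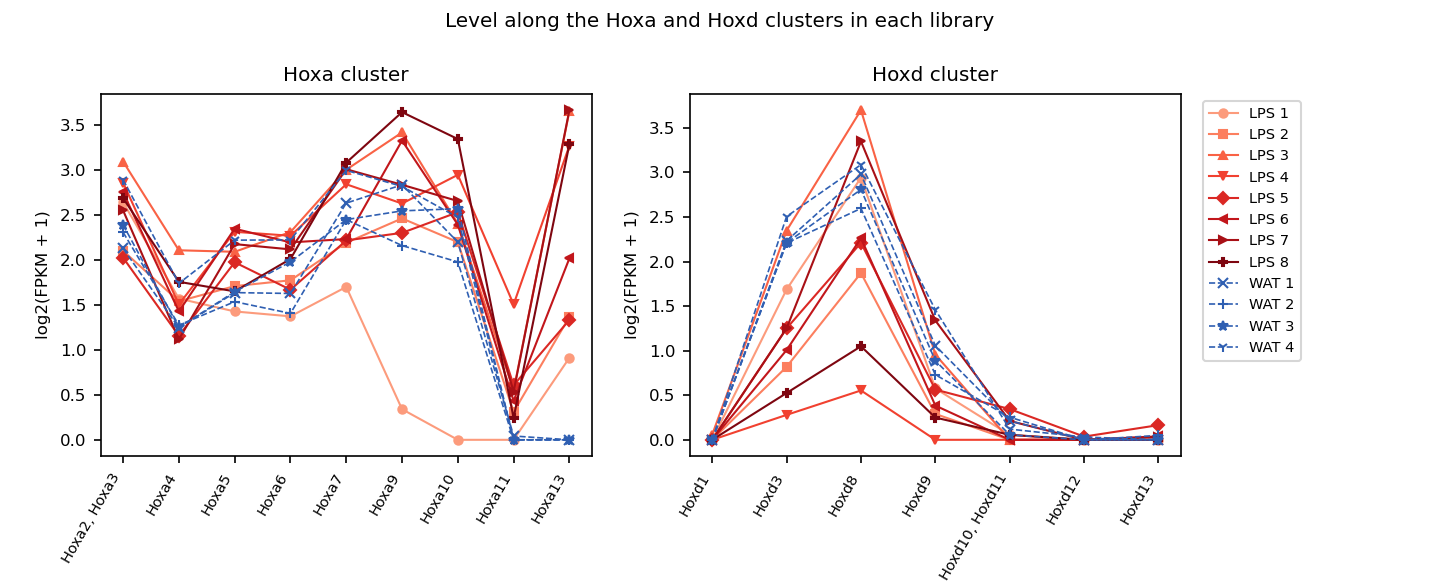
Level along the Hoxa and Hoxd clusters on the log2(FPKM + 1) scale, 1 line per library, with LPS in red shades and solid lines and WAT in blue dashed lines. In Hoxa, LPS 1 drops to 0 at Hoxa10 and all tumours turn up again at Hoxa13, where WAT is at 0; in Hoxd the tumours spread from LPS 4 to LPS 3 around the WAT lines at Hoxd8, and all libraries are near 0 from the joined row of Hoxd10 and Hoxd11 on.

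Hotairm1 of Hoxa and Hoxb3os of Hoxb, both noncoding, were higher in tumours. Of 23 listed transcripts of the clusters other than Hox mRNAs, 18 were found as rows of their own, some under older symbols given by RefSeq. Of these, 5 were tested, 3 were higher in LPS and none lower, against 18.9% and 27% of all rows tested. The third, Hoxa11os, passed the filter through LPS alone and adds no support. When 1 library was left out, 2 to 3 were higher. Hottip, a long RNA made from the 5′ end of Hoxa beyond Hoxa13 that is known in human cells to keep that end active, was below the filter. It measured 0.0432, 0.129, 1.71, 1.37, 0.086, 0.617, 0.997 and 0.339 FPKM in LPS 1 to LPS 8 and was listed at 0 in all 4 WAT libraries. The 3 tumours with the lowest Hottip, LPS 1, LPS 5 and LPS 2, were also the 3 with the lowest Hoxa13.

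At the other end of Hoxa, Hotairm1, a long noncoding RNA known from myeloid cells, measured 83.5, 6.45, 10.9, 30.1, 9.40, 27.9, 32.4 and 20.9 FPKM in LPS 1 to LPS 8 and 5.55, 2.69, 7.97 and 4.42 FPKM in WAT 1 to WAT 4. LPS 2 lay within the fat range and LPS 1 was the highest tumour (1.90 ± 0.54, limma adjusted p = 0.0119). Hotair, the long RNA between Hoxc11 and Hoxc12, was below the filter at 0.127 to 0.713 FPKM in LPS and at most 0.0271 FPKM in WAT, without overlap. Hoxb3os, which lies antisense to Hoxb2 and part of Hoxb3, measured 6.57 to 18.1 FPKM in LPS and 0.901 to 2.85 FPKM in WAT, without overlap (2.11 ± 0.24, limma adjusted p = 1.17e-05).

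Hoxa11os, antisense to Hoxa11, lay at 0 to 5.51 FPKM in LPS and 0 to 0.17 FPKM in WAT (1.20 ± 0.42, limma adjusted p = 0.0313). Its row passed the filter through LPS libraries alone, LPS 4 was highest as for Hoxa11, and the call was lost without LPS 2 or any 1 of the 4 WAT libraries (highest adjusted p = 0.072). Hoxaas3, antisense to the Hoxa genes from Hoxa3 to Hoxa7, was not called, at 2.47 ± 0.513 FPKM in LPS and 2.19 ± 0.835 FPKM in WAT, nor was Hoxd3os1, at 0.0762 to 3.32 FPKM in LPS and 1.89 to 4.49 FPKM in WAT. The precursors of Mir10b, Mir196a-1, Mir196a-2 and Mir615 were listed at 0 in all 12 libraries. The library kit marks strand, but the sources used here do not say whether reads were counted by strand, and without it reads of a Hox gene and its antisense partner cannot be told apart. In GENCODE M21 opposite-strand genes cover 100% of Hoxa4, Hoxa5, Hoxa6, Hoxb2, Hoxb5, Hoxb6 and Hoxd8 and 38.3% of Hoxa11. No opposite-strand gene lies over Hoxa13, Hoxc8, Hoxc11 or Hoxc13, but the Hoxc5 gene model spans Hoxc8 on the same strand.

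Of 13 matched genes that flank the clusters, 12 were tested, 3 were higher and 4 lower, near the 18.9% and 27% of all rows tested. Skap1, beside Hoxb and a gene of T cells, was lower at 1.39 ± 1.48 FPKM in LPS and 22.9 ± 7.88 FPKM in WAT (-3.45 ± 0.37, limma adjusted p = 5.68e-06), and Hibadh, an enzyme of valine breakdown beside Hoxa, was lower at 27.8 ± 7.17 FPKM in LPS and 126 ± 8.37 FPKM in WAT (-2.18 ± 0.19, limma adjusted p = 9.88e-07). Skap2, beside Hoxa, was higher at 26.6 ± 2.97 FPKM in LPS and 18.3 ± 1.68 FPKM in WAT, as was Cbx5, a heterochromatin protein gene near Hoxc, at 40.1 ± 5.72 FPKM in LPS and 25.2 ± 1.88 FPKM in WAT. Atp5g1, a subunit gene of ATP synthase, was not called, at 33.4 ± 12.6 FPKM in LPS and 29.5 ± 10.6 FPKM in WAT.

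Several partners of Hox factors were higher, and none of those tested was called lower. Of 11 TALE genes, which encode homeodomain proteins that bind DNA together with Hox proteins, 10 were tested and 5 were higher, against 18.9% of all rows tested. Pbx3 was higher without overlap, at 10.3 to 19.9 FPKM in LPS and 2.60 to 3.95 FPKM in WAT (1.95 ± 0.16, limma adjusted p = 5.75e-07), and so was Meis3, at 5.31 to 15.0 FPKM in LPS and 2.96 to 3.86 FPKM in WAT (1.38 ± 0.22, limma adjusted p = 0.00019). Meis1, Meis2 and Pbx2 were higher by 0.57, 0.49 and 0.62, and each of these 3 calls was lost without WAT 1, WAT 2 or WAT 3 (highest adjusted p = 0.121, 0.0813 and 0.111), those of Meis1 and Pbx2 in 8 of the 12 omissions each. The row of Pbx2, counted among the 5, also joins the gene Gpsm3, and the values of these genes cannot be parted. The number higher ran from 2 to 6 when 1 library was left out. Pknox2, the gene not tested, averaged 0.182 FPKM in LPS (0 to 0.826) and 1.15 FPKM in WAT (0.788 to 1.47). A gene below 1 FPKM in every tumour had to reach 1 FPKM in all 4 fat samples to be tested.

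Genes of the Polycomb complexes, which silence Hox genes, went both ways. Of 26 tested, 7 were higher and 3 lower, against 18.9% and 27% of all rows tested, with a median log2 difference of 0.20. Phc2, a subunit of complex PRC1, was higher at 54.6 ± 17.8 FPKM in LPS and 19.8 ± 0.484 FPKM in WAT (1.36 ± 0.20, limma adjusted p = 0.000102), as was Rnf2, its ubiquitin ligase, at 25.5 ± 5.16 FPKM in LPS and 13.5 ± 1.35 FPKM in WAT. Cbx7, a PRC1 subunit that reads the silencing mark, was lower at 2.21 ± 1.11 FPKM in LPS and 10.3 ± 3.37 FPKM in WAT (-1.84 ± 0.25, limma adjusted p = 4.37e-05), and Pcgf5, a subunit of a variant PRC1, was lower at 1.88 ± 0.723 FPKM in LPS and 7.52 ± 0.581 FPKM in WAT. Suz12, a core subunit of PRC2, was not called, at 25.6 ± 5.93 FPKM in LPS and 19.3 ± 2.00 FPKM in WAT (adjusted p = 0.0919, and 0.0449 without LPS 1). The number higher ran from 4 to 8 when 1 library was left out.

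Of 14 Trithorax and demethylase genes, 2 were higher and 4 lower, near the 18.9% and 27% of all rows tested. When 1 library was left out, 1 to 3 were higher and 3 to 5 lower. Psip1, a chromatin reader that recruits the activating complex, was higher at 44.4 ± 6.19 FPKM in LPS and 32.2 ± 2.16 FPKM in WAT, and Wdr5, a subunit of that complex, at 16.8 ± 1.84 FPKM in LPS and 13.3 ± 0.579 FPKM in WAT, a call lost without WAT 1, WAT 2 or WAT 3 (highest adjusted p = 0.0712). Dot1l, a histone methyltransferase, was lower at 13.7 ± 1.76 FPKM in LPS and 32.4 ± 4.31 FPKM in WAT (-1.18 ± 0.12, limma adjusted p = 3.53e-06), as was Kmt2d at 19.7 ± 4.40 FPKM in LPS and 28.5 ± 1.42 FPKM in WAT. Ctcf, a boundary factor, was not called, at 19.4 ± 2.25 FPKM in LPS and 20.2 ± 1.63 FPKM in WAT.

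Of 11 tested genes of retinoic acid and related signals, which set Hox expression in the embryo, 1 was higher and 6 were lower, against 18.9% and 27% of all rows tested. Of the 6, Rxrg passed the filter through WAT libraries alone and adds no support. Gdf11, a ligand that turns on posterior Hox genes in the mouse embryo, measured 19.5 to 46.7 FPKM in LPS and 2.39 to 3.32 FPKM in WAT, without overlap (3.06 ± 0.20, limma adjusted p = 7.93e-08). Rxrg, a retinoid receptor gene, lay at 0 to 0.538 FPKM in LPS and 11.3 to 13.3 FPKM in WAT, and Aldh1a1, an enzyme that makes retinoic acid, was lower at 0.252 to 5.85 FPKM in LPS and 6.65 to 14.2 FPKM in WAT. Rarg, a retinoic acid receptor gene, was not called, at 15.8 ± 4.83 FPKM in LPS and 10.8 ± 1.36 FPKM in WAT (adjusted p = 0.0759, and called without LPS 4 or LPS 5, lowest 0.0371).

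**Figure D5:**
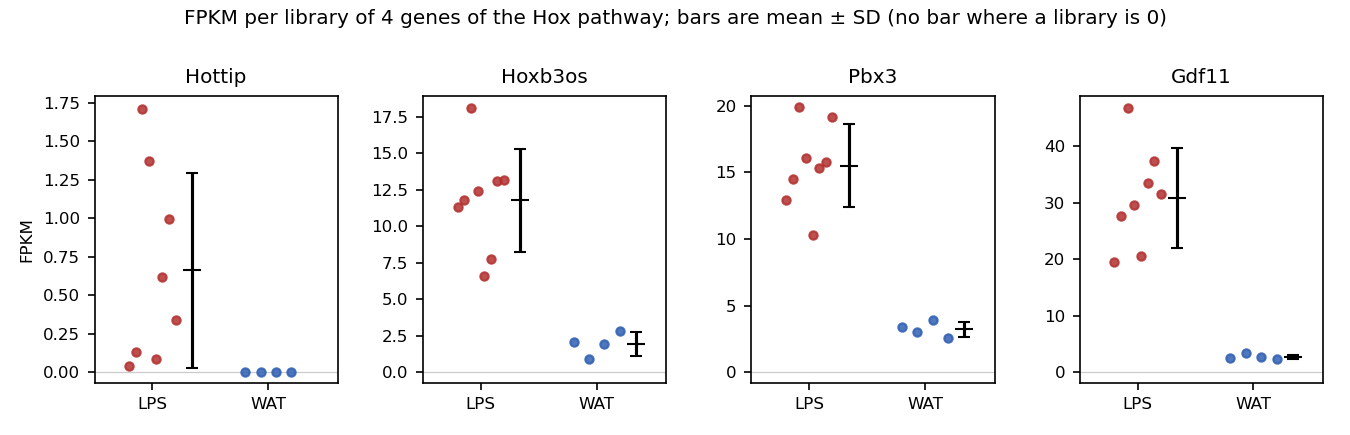
FPKM of Hottip, Hoxb3os, Pbx3 and Gdf11 in each library, LPS left of WAT in each panel, with the mean and SD beside the points of each group that has no library at 0. In all 4 genes every tumour is above every fat sample, and Hottip ranges from 0.0432 to 1.71 FPKM in LPS and is at 0 in WAT.

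Other positional genes also varied among tumours. Of 30 matched genes of limb, trunk and fat depots, 10 were tested, 3 were higher and 2 lower, against 18.9% and 27% of all rows tested. When 1 library was left out, 3 to 5 were higher and 0 to 2 lower. Nr2f1 and Nr2f2, nuclear receptors of mesenchyme and veins, were higher at 53.0 ± 20.0 FPKM in LPS and 2.97 ± 1.19 FPKM in WAT (3.73 ± 0.27, limma adjusted p = 1.91e-07) and at 62.0 ± 20.4 FPKM in LPS and 11.0 ± 2.51 FPKM in WAT (2.35 ± 0.23, limma adjusted p = 3.04e-06). Meox1, a gene of the embryonic somite, was lower at 1.89 ± 1.02 FPKM in LPS and 3.72 ± 0.89 FPKM in WAT. That call was lost without WAT 1, WAT 2 or WAT 3 (highest adjusted p = 0.0763), and Meox2, the most abundant gene not called, was at 11.2 ± 5.32 FPKM in LPS and 5.30 ± 0.747 FPKM in WAT (adjusted p = 0.0504, and called without LPS 5 or LPS 7, lowest 0.00557).

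Below the filter, Tbx5, the forelimb T-box gene, measured 11.4, 0, 24.2, 0, 0.142, 0, 3.26 and 0.0138 FPKM in LPS 1 to LPS 8 and 0.473 to 0.970 FPKM in WAT. It was high in LPS 1, LPS 3 and LPS 7, the tumours with the highest Hoxd8. Pax3, a gene of dermomyotome and neural crest, measured 9.04 FPKM in LPS 2 and at most 1.87 FPKM in the other tumours and 0.0331 FPKM in WAT. Tbx5 and Pax3 were picked out after their values were seen.

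Markers of the cell types that the samples could hold also differed between the groups. The counts below stand against 18.9% higher and 27% lower over all rows tested. The summed FPKM of 8 mature adipocyte markers was 69.7 to 2040 in LPS and 10700 to 13000 in WAT, with 8 of 8 lower. That of 8 pericyte markers was 3570 to 7840 in LPS and 221 to 238 in WAT, with 8 of 8 higher, and that of 8 fibroblast and progenitor markers was 65.0 to 401 in LPS and 1060 to 1790 in WAT, with 7 of 8 lower. Endothelial markers summed to 108 to 163 in LPS and 157 to 194 in WAT (1 of 6 higher and 4 lower), macrophage markers to 47.6 to 178 in LPS and 64.1 to 74.0 in WAT (1 of 5 higher and 1 lower) and lymphocyte markers to 10.1 to 60.1 in LPS and 112 to 224 in WAT (6 of 6 lower). Schwann cell markers summed to 2.72 to 9.59 in LPS and 131 to 185 in WAT (5 of 5 lower) and skeletal muscle markers to 0.463 to 425 in LPS and 5.03 to 1670 in WAT (2 of 6 lower, and 0 to 6 lower when 1 library was left out). Mesothelial markers summed to 0.0279 to 2.78 in LPS and 2.05 to 5.53 in WAT, and epithelial and urothelial markers to 0.302 to 8.76 in LPS and 1.15 to 12.7 in WAT, and none of them passed the filter. Upk1b, a urothelial gene picked out after its values were seen, was at 8.0 FPKM in LPS 7 and 2.13 FPKM in LPS 3, the tumours with the highest Hoxa13. It was at most 0.177 FPKM in the other tumours and 0.577 FPKM in WAT. The other epithelial and urothelial markers did not share these levels, at 0 to 0.416 FPKM in LPS 7 and 0 to 0.158 FPKM in LPS 3, and Upk2 was listed at 0 in all libraries. Krt18, an epithelial keratin gene, was highest in WAT 3, at 4.29 FPKM. Of the markers called lower, 2 of mature adipocytes, 3 of lymphocytes and 2 of Schwann cells passed the filter through WAT libraries alone. The part of any of these cell types in the Hox differences was not tested.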

How the data were processed

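The authors deposited FPKM values, with 1 value for each row in each library. Some Hox rows carry the same locus as others of their cluster. These are the rows from Hoxa2 to Hoxa7, Hoxb2 with Hoxb3, and Hoxb5 with Hoxb6. The same holds for Hoxd3 with Hoxd8, and for Hoxc6, Hoxc8, Hoxc9 and the joined row of Hoxc10 and Hoxc5. Cuffdiff 2.2.1, Cufflinks 2.2.1, TopHat2 2.1.0, Bowtie2 and Trimmomatic are the tools named, and GRCm38 is the build, per the submitters' processing notes, which give them no role. Per the labels' protocols, ribosomal RNA was removed from the total RNA of frozen tissue before stranded libraries were prepared. The sources used here do not say whether FPKM were scaled further or counted by strand. A listed 0 can be a failed estimate. All 12 value columns were used.

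LPS was compared with WAT on the log2(FPKM + 1) scale with R 4.3.3 and limma 3.58.1 (robust empirical Bayes with a trend, two-sided). The fit took every row that reached 1 FPKM in 4 or more libraries, with Benjamini-Hochberg adjustment over all tested rows at 0.05. The fit was tested on simulated data. Summaries used Python 3.11.15 with pandas 2.3.3.

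The Hox rows and the gene lists were chosen with earlier results of these data known. Counts and sums cover all Hox rows and listed genes, of which a few are not reported here by name. The rule for lists names, of each, the most abundant gene without a call and the 2 called genes with the largest difference in each direction, and other genes were named after their values were seen. List members not found by symbol were matched through older symbols in RefSeq. Coordinates, counted from 1, are from GENCODE M21 on GRCm38. Homeoboxes were cut from its coding sequences, and promoters are from RefSeq on GRCm38.p6.

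Alternatives were pseudocounts of 0.1 and 0.5, no filter or a filter on the mean, median-ratio scaling, quantile normalization, array quality weights, plain empirical Bayes, a replicate block and each library left out in turn. LPS 1 to 4 against WAT 1 to 4 alone, and the Xist level as a covariate, were added after the data were seen.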

Additional observations from a re-analysis of the deposited data

Results flagged for a closer look

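In 7 of 49 groups examined, a single library lay far from the rest of its group, by Dixon's gap test at the 95% level. Chance gives about 1 group in 20 where values are normally distributed. The gaps were taken on FPKM without a log scale, for which that was not checked, and all 7 flagged libraries were the highest of their group. In LPS 2, Hoxb7 stood at 13.2 FPKM against 3.67 to 7.23 FPKM in the other tumours, and Hoxc6 at 21.0 FPKM against 7.79 to 13.8 FPKM. LPS 4 held 1.84 FPKM of Hoxa11 against 0 to 0.523 FPKM in the others, and LPS 7 held 4.68 FPKM of Hoxc12 against 0.445 to 0.733 FPKM. Among the fat samples, WAT 4 was the high library in 3 genes, with 2.34 FPKM of Hoxa4 against 1.37 to 1.42 FPKM, 3.66 FPKM of Hoxa5 against 1.90 to 2.13 FPKM, and 4.68 FPKM of Hoxd3 against 3.62 to 3.70 FPKM.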

How the results depend on the processing

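The number of Hox rows higher in LPS was 10 and ran from 8 to 12 over all alternatives, and from 8 to 11 when 1 library was left out. The number lower was 2, and 2 without each library in turn. LPS and WAT share the replicate numbers 1 to 4, but no label says that the numbers pair the libraries. Same-numbered libraries deviated together with a correlation of -0.017 to 0.092. Among LPS 1 to LPS 4, the library of the same number correlated best with WAT 3 and with WAT 4, but not with WAT 1 or WAT 2. Such small correlations cannot settle whether the libraries are paired. With the replicate block, fitted on those 8 libraries, 8 rows were higher and 1 lower, and LPS 1 to 4 against WAT 1 to 4 alone, with no block, gave 10 higher and 1 lower. Under the block the calls of Hoxb6, Hoxb8, Hoxc4 and Hoxd3 were lost (adjusted p = 0.0609, 0.0979, 0.0713 and 0.102) and the row of Hoxc10 and Hoxc5 was called (0.0497). The same row was also called with array quality weights (0.00954), after quantile normalization (0.013), with those 8 libraries and no block (0.0204) and without LPS 5 (0.0118), and Hoxb5 was called after quantile normalization (0.0108). No alternative ended the calls of Hoxb2, Hoxb3, the row of Hoxb4, Hoxb7 or Hoxc8. Signs turned only in rows not called, near 0: Hoxa9 was -0.12 and -0.02 at pseudocounts of 0.1 and 0.5, Hoxa10 -0.32 and -0.07, and -0.01 with array quality weights. With the block, and with the same 8 libraries and no block, Hoxa9 was -0.38, Hoxa10 -0.42 and Hoxc9 0.01. After quantile normalization Hoxa7 was 0.06 and Hoxc9 0.11. Leaving out 1 library gave -0.18 to 0.02 for Hoxa7, -0.12 to 0.36 for Hoxa9 and -0.14 to 0.33 for Hoxa10; the cause was not tested. Over all rows tested, quantile normalization gave a median of 0.10, against -0.05 as deposited, and 45.2% of calls were then lower, against 58.8% as deposited and 67.1% with no filter. Depth is unknown, so values under about 1 FPKM carry an error that cannot be given.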
